A study of Homo sapiens with 12 samples.

Results

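The genes of the EGFR family receptors and their ligands were examined in RNA-sequencing data of 3 established prostate cell lines. The family was taken as 10 named genes, 4 receptors (EGFR, ERBB2, ERBB3 and ERBB4) and 6 ligands (TGFA, AREG, EREG, HBEGF, BTC and EPGN), and each had 1 row among the 58302 genes of the deposited table. BPH-1 is a line of benign prostate epithelial cells, and DU145 and PC3 are PCa cell lines. There were 4 libraries of each line, with no treatment named in the labels. The labels do not say whether the 4 libraries of a line came from separate cultures, so the p-values measure only the spread between these libraries, which may be technical. Each line is a single line, and a difference between lines cannot be told apart from other differences between these lines.

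The receptors of this family are tyrosine kinases of the cell surface that work in pairs. A ligand that is bound to EGFR, ERBB3 or ERBB4 brings receptors together. ERBB2 has no known ligand of its own and serves as a partner, and ERBB3 has a weak kinase and signals mostly through its partner. The ligands are made as membrane proteins and are released by shedding enzymes, and the receptors signal through RAS-MAPK and PI3K. In prostate epithelium, EGFR signalling is known as a growth stimulus.

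Values are FPKM, the reads counted on a gene divided by the length of the gene and by the total of the library. Depth was recovered from the steps between low values and was 12950665 to 16309559 reads per library (median 15341001). The length in these values was the sum of all distinct exons of a gene, which was 1.11 to 3.56 times the longest transcript of a member, so levels of different members are compared only roughly. Differences between lines are log2 fold changes on log2(FPKM + 1) from limma, called at a Benjamini-Hochberg adjusted p under 0.05 over all genes tested. This scale understates the change of weakly expressed genes: with log2(FPKM + 0.1), or with voom on the recovered reads, the called values of ERBB3, BTC, EREG and EPGN were over 1.5 times as large, and they are given below for these members. Limits given for 0 reads cover counting error only.

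The libraries of a line were not alike, and this bears on several results. In DU145 replicates 1 and 3, transcripts of at least 8000 bases had a median FPKM of 1.40 and 0.91, against 3.10 and 3.05 in replicates 2 and 4. In PC3 replicate 4 it was 1.34, against 2.67, 2.66 and 2.22 in replicates 1 to 3, and in BPH-1 it lay between 4.87 and 5.14. Across 10493 expressed protein-coding genes, Spearman's rho of the level with gene GC content was 0.39 and 0.46 in DU145 replicates 1 and 3, and 0.08 and 0.15 in replicates 2 and 4. In PC3 replicates 1 to 4 it was 0.16, 0.19, 0.28 and 0.38, and in BPH-1 it was negative in each library (-0.18 to -0.13), so the PC3 and BPH-1 libraries also differed in this trend. Genes of a library are not independent of each other, so rho is a description. Results are therefore given also without DU145 replicates 1 and 3, and the part of this split in them was not tested.

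Markers were compared with the labels. The 4 basal keratin and TP63 markers summed to an FPKM of 298.7 to 427 in BPH-1, with KRT14 the most abundant. In the PCa libraries they summed to 0.173 to 2.43. KRT15 did not follow this sum in PC3, where it was at 1.08 to 2.42, against 0.513 to 2.17 in BPH-1. In DU145, KRT15 was at 0.169 to 0.443. The 5 simple epithelial markers summed to 84.1 to 367 in every library. Of the 5 luminal prostate markers, most of which depend on androgen, 1 to 4 were at 0 in each library. In DU145, however, EPCAM and CDH1 of that list were at most 0.573 and 0.297, and KRT18 was the most abundant. The sums of 5 fibroblast markers were at most 3.94, with COL1A1 the most abundant, and those of 3 endothelial markers at most 2.28. The 3 leukocyte markers summed to 4.83 to 13.5, mostly CD68, with CD3E at 0 in every library. PTPRC was at 1.15 to 1.54 in BPH-1, at 0 to 1.35 in DU145 and at 0 in PC3, and PECAM1 was at 0.130 to 0.179 in BPH-1, at 0 to 0.224 in DU145 and at 1.19 to 2.28 in PC3.

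EGFR, on chromosome 7, is the receptor of all 6 ligands. It had the highest FPKM among the members in BPH-1 (41.6 ± 4.61, mean ± SD, n = 4) and was lower in PC3 (11.5 ± 4.83). Its FPKM in BPH-1 replicates 1 to 4 was 47.9, 42.1, 38.9 and 37.5. In PC3 it was 18.2, 11.6, 9.18 and 7.00, and no PC3 library reached the level of a BPH-1 library. A two-sided exact permutation test gave p = 0.0286, which is the lowest value possible with 4 libraries on each side, and the same holds wherever lines are said not to overlap. The log2 fold change was -1.84 (standard error 0.24, adjusted p = 0.000104), and it was called under all 19 alternatives tried (-2.10 to -1.42). The longest transcript of EGFR has 9821 bases. Transcripts of at least 8000 bases also had a lower median FPKM in PC3 (1.34 to 2.67) than in BPH-1 (4.87 to 5.14). The part of this in the lower EGFR of PC3 was not tested. Fewer cells that express a gene and less RNA per cell cannot be told apart in such libraries.

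In DU145, EGFR fell into separate levels. Its FPKM was 5.60 and 2.33 in replicates 1 and 3, and 31.4 and 31.9 in replicates 2 and 4. These are the libraries that also had low levels of long transcripts, and EGFR was the member that moved most between them. Its difference between replicates 2 and 4 and replicates 1 and 3 was 2.80 on the log2(FPKM + 1) scale, rank 13 from the highest among 10493 genes, whose median was -0.09. Against BPH-1, the log2 fold change over all libraries was -1.78 (standard error 0.67, adjusted p = 0.0393). It was -0.38 (adjusted p = 0.0282) without DU145 replicates 1 and 3, and the call was lost without a filter on low values (adjusted p = 0.0949) and without any 1 of the BPH-1 libraries (adjusted p 0.0675 to 0.0827), DU145 replicate 1 (-1.47, adjusted p = 0.106) or DU145 replicate 3 (-1.15, adjusted p = 0.0755). All 4 DU145 libraries were below all 4 BPH-1 libraries. Between PC3 and DU145, EGFR was not called over all libraries (log2 fold change -0.06, adjusted p = 0.952), and it was lower in PC3 without DU145 replicates 1 and 3 (-1.46, adjusted p = 0.00952), and with PC3 replicate 4 also left out (-1.27, adjusted p = 0.00923).

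**Figure D1:**
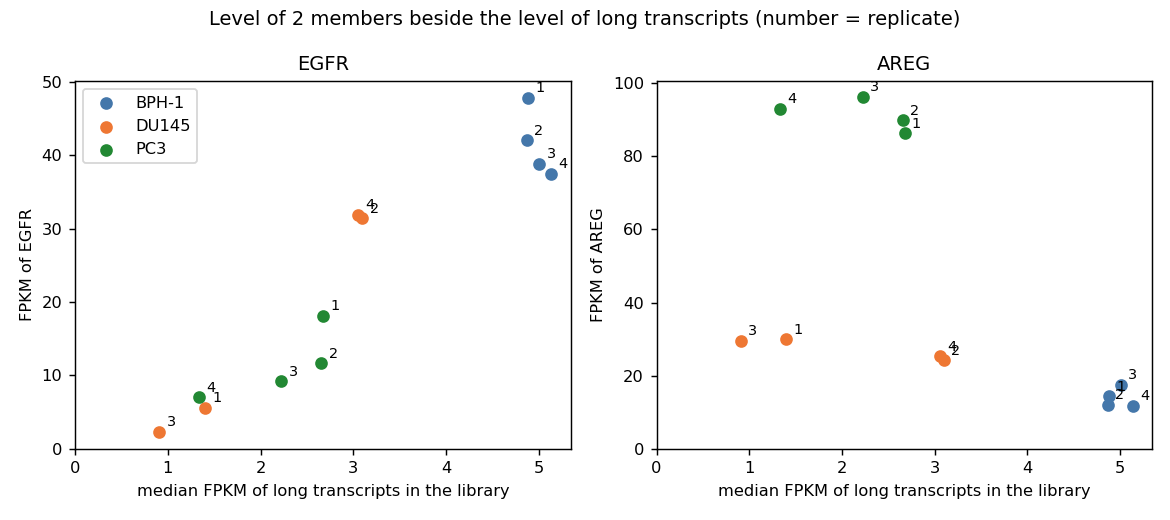
FPKM of EGFR (left) and AREG (right) in each library against the median FPKM of transcripts of at least 8000 bases in the same library, with the replicate number beside each point. EGFR is at 5.60 and 2.33 in the DU145 libraries with few long transcripts and at 31.4 and 31.9 in the others, while AREG is at 24.2 to 30.0 in all 4.

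ERBB2, on chromosome 17, is the partner receptor without a ligand. Its FPKM was 4.88 to 6.18 in BPH-1, 5.75 to 9.45 in DU145 and 4.24 to 5.47 in PC3. It was not called in PC3 against BPH-1 (log2 fold change -0.16, adjusted p = 0.252) or in DU145 against BPH-1 (0.32, adjusted p = 0.146). It was called lower in PC3 with FPKM rescaled to the same sum (-0.39, adjusted p = 0.0156) or with the GC trend of each library divided out (-0.41, adjusted p = 0.00350), and higher in DU145 with upper-quartile scaling (0.58, adjusted p = 0.0407). In PC3 against DU145 it was lower (-0.48, standard error 0.17, adjusted p = 0.0460), but that call did not last. It was lost without DU145 replicate 1 (-0.37, adjusted p = 0.125) or 3 (adjusted p = 0.0862), without any 1 PC3 library (adjusted p 0.0546 to 0.118), without a filter (adjusted p = 0.0587), with the replicate block (adjusted p = 0.115), with median-of-ratios (adjusted p = 0.151) or upper-quartile scaling (adjusted p = 0.195), and without DU145 replicates 1 and 3 together (-0.24, adjusted p = 0.185). ERBB2 shares exon bases with MIEN1 and PGAP3 on the other strand. The use of strand is not stated, so reads of the shared bases are uncertain.

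ERBB3, on chromosome 12, pairs with ERBB2 to drive PI3K and was lower in both PCa lines. Its FPKM in BPH-1 was 1.94, 3.47, 1.81 and 2.86, in DU145 1.11, 0.886, 1.15 and 1.26, and in PC3 0.969, 0.998, 1.5 and 0.945. Neither PCa line overlapped BPH-1. The log2 fold change was -0.72 in PC3 (standard error 0.17, adjusted p = 0.00389) and -0.72 in DU145 (standard error 0.18, adjusted p = 0.00510), called under all 19 and all 20 alternatives. With log2(FPKM + 0.1) the values were -1.10 and -1.08, and with voom -1.16 and -1.15. Upper-quartile scaling lowered the fall in PC3 to -0.48 (adjusted p = 0.0229). The PCa lines were not told apart (adjusted p = 0.980). ERBB4, a receptor for neuregulins, had 4 reads in BPH-1 replicate 2 and 1 read in PC3 replicate 3. In the other 10 libraries it had 0 reads, which allow an FPKM of up to 0.0104. ERBB4 was not tested and no fold is given.

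TGFA, a ligand of EGFR, was higher in PC3. Its FPKM was 21.8, 21.1, 21.0 and 19.5 in PC3, 10.2, 14.2, 11.4 and 10.5 in BPH-1, and 12.4, 12.4, 7.61 and 13.0 in DU145. No library of another line reached the PC3 libraries. The log2 fold change was 0.81 against BPH-1 (standard error 0.12, adjusted p = 0.000227) and 0.85 against DU145 (standard error 0.17, adjusted p = 0.00315), and both were called under every alternative. DU145 was not told apart from BPH-1 (-0.04, adjusted p = 0.878).

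AREG, the ligand amphiregulin, was higher in both PCa lines than in BPH-1. In PC3 against BPH-1 it had the largest log2 fold change among the members on log2(FPKM + 1). Its FPKM was 14.4, 12, 17.5 and 11.7 in BPH-1, 30.0, 24.2, 29.5 and 25.3 in DU145, and 86.3, 89.9, 96.3 and 93.1 in PC3. The 3 lines did not overlap. Mean FPKM was 6.57 times that of BPH-1 in PC3 (91.4 ± 4.31 against 13.9 ± 2.67, mean ± SD, n = 4) and 1.96 times in DU145. For BTC, at far lower levels, the ratio of means in PC3 was 6.75. On the log2 scale AREG changed by 2.65 in PC3 against BPH-1 (standard error 0.13, adjusted p = 2.47e-07), 0.93 in DU145 against BPH-1 (standard error 0.17, adjusted p = 0.000905) and 1.71 in PC3 against DU145 (standard error 0.12, adjusted p = 5.68e-06). All 3 were called under every alternative, and AREG was as high in PC3 replicate 4 as in the other PC3 libraries.

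HBEGF, which binds EGFR and ERBB4, was highest in DU145. Its FPKM was 41.3, 37.2, 46.3 and 31.8 in DU145, 14.8, 16.1, 15.3 and 21.9 in PC3, and 9.0, 10.0, 11 and 8.09 in BPH-1. Here too, the 3 lines were apart. The rise on the log2 scale was 1.93 in DU145 (standard error 0.17, adjusted p = 8.51e-06) and 0.77 in PC3 against BPH-1 (standard error 0.15, adjusted p = 0.00123), and PC3 was lower than DU145 (-1.16, standard error 0.17, adjusted p = 0.000455). These calls held under every alternative.

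BTC, EREG and EPGN were weakly expressed. BTC, a ligand of EGFR and ERBB4, had an FPKM of 2.55, 3.23, 1.67 and 0.992 in PC3, 0.146 to 0.589 in BPH-1 and 0.0833 to 0.982 in DU145. All 4 PC3 libraries were above the other lines. Its log2 fold change in PC3 was 1.20 against BPH-1 (standard error 0.22, adjusted p = 0.000949; 2.42 with log2(FPKM + 0.1), 2.79 with voom, 1.81 with the GC trend divided out) and 0.99 against DU145 (standard error 0.27, adjusted p = 0.0134). The latter was 1.94 with log2(FPKM + 0.1) and 2.27 with voom, and the call was lost without DU145 replicates 1 and 3 (0.68, adjusted p = 0.104). In DU145 against BPH-1, BTC was not called (0.21, adjusted p = 0.331) but was without DU145 replicates 1 and 3 (0.52, adjusted p = 0.0161) and with the GC trend divided out (0.55, adjusted p = 0.00735).

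EREG, the ligand epiregulin, had an FPKM of 0.697, 0.204, 0.963 and 0.619 in BPH-1, 0.567, 1.78, 0.293 and 1.42 in DU145, and 0.216, 0.205, 0.112 and 0.0962 in PC3. It had 8 to 18 reads in a PC3 library, and PC3 and BPH-1 overlapped. It was lower in PC3 than in BPH-1 (log2 fold change -0.47, standard error 0.13, adjusted p = 0.00974), but with the GC trend of each library divided out the value was 0.01 (adjusted p = 0.911), and in 1 fit over all 3 lines the call was lost (adjusted p = 0.0796). A two-sided exact permutation test gave p = 0.0857. With log2(FPKM + 0.1) the value was -1.38, and with voom -1.83. EREG has a GC content of 36.1%, against a median of 49.1% over expressed protein-coding genes. In DU145 it was not called (0.27, adjusted p = 0.362), and was without DU145 replicates 1 and 3 (0.70, adjusted p = 0.0182) and with the GC trend divided out (1.08, adjusted p = 9.99e-05). PC3 was lower than DU145 without overlap (-0.73, standard error 0.22, adjusted p = 0.0219). That value was -1.88 with log2(FPKM + 0.1), -2.39 with voom and -1.16 without DU145 replicates 1 and 3, and its call was lost without DU145 replicate 4 (-0.62, adjusted p = 0.0579), without PC3 replicate 3 (adjusted p = 0.0547) or without a filter (adjusted p = 0.0532). EPGN, the ligand epigen, had 14 to 44 reads in each PC3 library, 0 to 8 in BPH-1 and 0 in DU145. Its FPKM in PC3 was 0.452, 1.10, 0.719 and 0.372. It was higher than in BPH-1 by 0.57 on the log2 scale (standard error 0.13, adjusted p = 0.00276; 1.89 with log2(FPKM + 0.1), 2.99 with voom, 0.96 with the GC trend divided out), and the mean in PC3 was at least 9.77-fold higher than the mean of the limits that 3 reads per library set in DU145. The fitted value against DU145, 0.71 (adjusted p = 0.00109), was 2.83 with log2(FPKM + 0.1) and 5.78 with voom and is no bound, since DU145 was at 0.

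**Figure D2:**
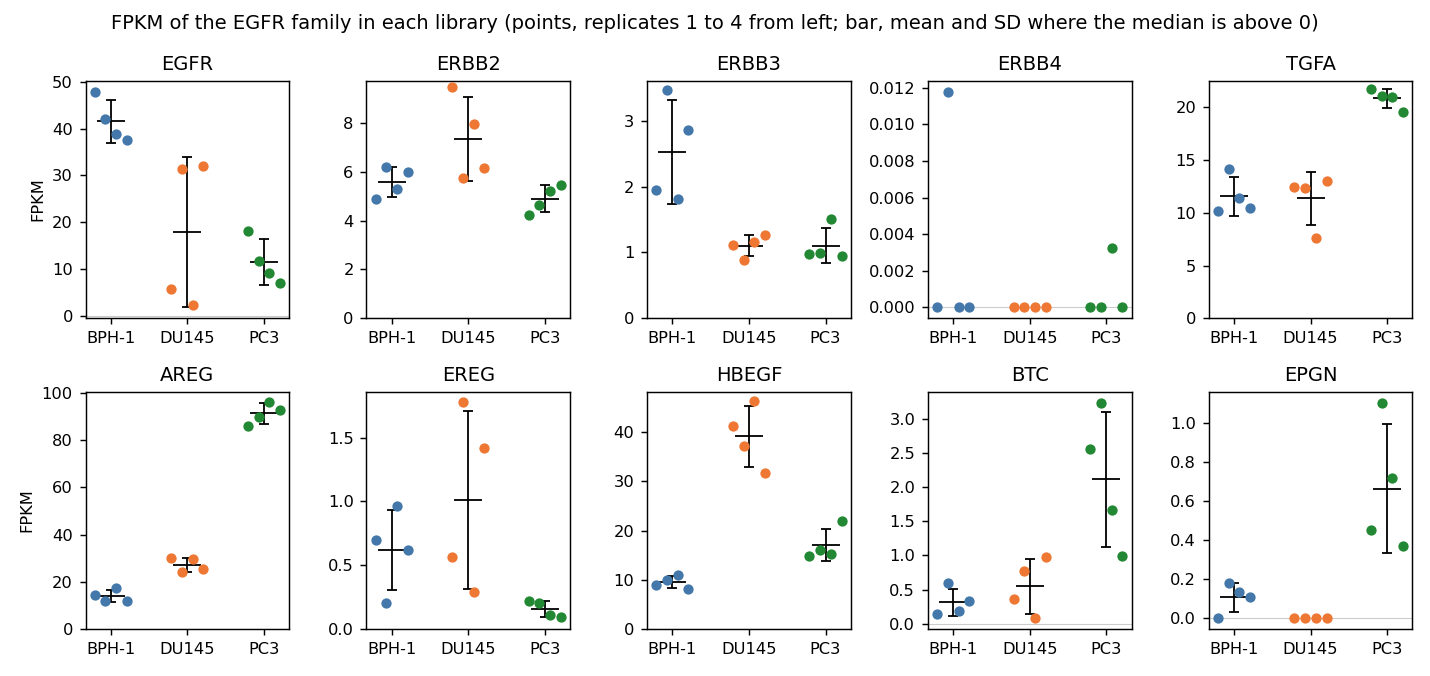
FPKM (vertical axis) of each of the 10 members in the 4 libraries of BPH-1, DU145 and PC3, with 1 point for each library and a bar for the mean and SD where the median is above 0. AREG lies between 86.3 and 96.3 in PC3 and HBEGF between 31.8 and 46.3 in DU145, above the other lines.

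In PC3 against BPH-1, 8 of the 9 members tested were called, 5 higher and 3 lower, where 67.6% of all 16345 genes tested were called (27.2% higher and 40.5% lower). Groups did not overlap for 64.5% of genes. In DU145 against BPH-1, 4 of 8 members tested were called, 2 higher and 2 lower, against 62.6% of genes (30.3% higher and 32.3% lower, with 59.4% not overlapping). In PC3 against DU145, 7 of 9 were called, 4 higher and 3 lower, against 48.2% (20.0% higher and 28.3% lower, with 46.5% not overlapping). Between 48.2% and 67.6% of genes were called in these comparisons, so the number of members called is not in itself a result about the family. Without DU145 replicates 1 and 3, 6 of 8 members were called in DU145 against BPH-1 (4 higher and 2 lower), against 59.0% of 17895 genes, and 6 of 9 in PC3 against DU145 (3 higher and 3 lower), against 52.6% of 16916 genes. The comparisons share libraries.

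**Figure D3:**
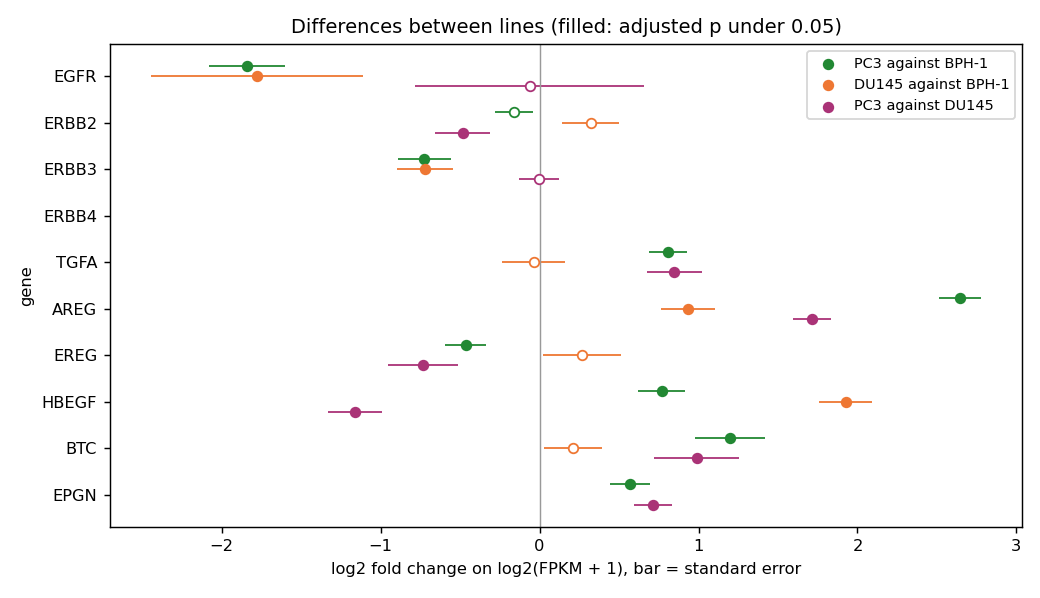
log2 fold change of each member on log2(FPKM + 1) (horizontal axis) in the 3 comparisons of lines, with the standard error as a bar and filled points for an adjusted p under 0.05. On this scale AREG is at 2.65 and EGFR at -1.84 in PC3 against BPH-1. ERBB4 was not tested.

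AREG, EREG, EPGN and BTC lie together on chromosome 4 of GRCh38, between 74308473 and 74794686, the only 4 protein-coding genes among 6 genes in those 486 kilobases. AREG, BTC and EPGN were called higher in PC3 than in BPH-1 and EREG was not, and the lower value of EREG did not hold with the GC trend divided out (0.01, adjusted p = 0.911). Promoters of 9 of the 10 members were in the RefSeq table for GRCh38.p14, which gives windows of 300 bases. The bases ahead of the deposited gene start are shown for the 3 neighbours on the plus strand, since they lie side by side and only 2 of them, AREG and EPGN, were called higher in PC3. Capitals mark matches on either strand to TATAAA (found in 11.5% of 35116 promoter windows), TGACGTCA (1.85%), GGGCGG (45.0%) and CCAAT (34.6%). The stretches shown are chr4:74444886-74445133, chr4:74364895-74365142 and chr4:74308220-74308469. They are shorter than the windows of 300 bases over which these shares were counted.
AREG: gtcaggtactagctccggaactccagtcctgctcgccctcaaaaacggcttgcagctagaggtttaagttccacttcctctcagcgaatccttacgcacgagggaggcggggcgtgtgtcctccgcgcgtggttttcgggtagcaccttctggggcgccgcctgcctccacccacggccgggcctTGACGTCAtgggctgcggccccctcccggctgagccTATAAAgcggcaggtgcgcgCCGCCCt
EREG: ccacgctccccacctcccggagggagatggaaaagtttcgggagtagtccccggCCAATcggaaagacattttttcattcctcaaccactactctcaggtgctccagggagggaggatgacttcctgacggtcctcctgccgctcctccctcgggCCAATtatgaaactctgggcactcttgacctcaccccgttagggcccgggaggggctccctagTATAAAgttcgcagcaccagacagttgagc
EPGN: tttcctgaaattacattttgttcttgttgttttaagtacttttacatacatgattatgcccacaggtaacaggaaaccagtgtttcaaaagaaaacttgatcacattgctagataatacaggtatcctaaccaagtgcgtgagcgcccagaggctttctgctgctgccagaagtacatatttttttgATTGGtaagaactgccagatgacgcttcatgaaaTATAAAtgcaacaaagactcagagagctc
All 3 held TATAAA, which ends 22, 25 and 27 bases before the gene start of AREG, EREG and EPGN. AREG alone of the 3 held TGACGTCA, the cAMP response element, and AREG held GGGCGG where EREG and EPGN held CCAAT. A match is a description and not a site.

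Likeness was described over the 12 libraries. The genes with the highest Pearson's r on log2(FPKM + 1) among 11898 genes were NCBP1 (0.982), C2CD3 (0.982) and RTCA (0.980) for EGFR, and SOX12 (0.992), CMBL (0.990) and TMEM200C (0.989) for AREG. For HBEGF they were RHEB (0.990), DAP3 (0.989) and ZNF740 (0.989), and for TGFA TMEM248 (0.955), CAMKK2 (0.953) and RGL1 (0.953). For ERBB2 they were ABCC1 (0.950), PIM3 (0.944) and CHCHD2P9 (0.944), for ERBB3 SPRR2A (0.965), S100A7 (0.964) and SLC2A12 (0.964), and for BTC CD302 (0.976), PLPP3 (0.956) and SYNJ2 (0.955). Libraries of a line share their source, so r is a description with no test.

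Genes of the pathway were described by lists, whose counts stand beside the shares of all genes tested. In PC3 against BPH-1 these were 27.2% higher and 40.5% lower (67.6% called, median log2 fold change -0.13), in DU145 against BPH-1 30.3% and 32.3% (62.6%, median -0.03), and in PC3 against DU145 20.0% and 28.3% (48.2%, median -0.05). A list near these shares shows nothing about the list itself. Of the 5 other ligands, NRG1, a neuregulin for ERBB3 and ERBB4, was 3.89 to 7.13 in BPH-1, at most 0.181 in DU145 and at most 0.00991 in PC3. It fell in PC3 (log2 fold change -2.59, adjusted p = 9.92e-07) and in DU145 (-2.42, adjusted p = 2.88e-06), and with log2(FPKM + 0.1) the values were -5.64 and -4.51, and with voom -10.81 and -5.35. NRG1 was at 0 in 3 of the 4 PC3 libraries, so the values for PC3 depend on the offset and are no bound. NRG2 rose in PC3 (1.64, adjusted p = 2.39e-07) and in DU145 (1.04, adjusted p = 1.22e-05), at 3.60 and 2.71 with log2(FPKM + 0.1) and 4.46 and 3.52 with voom. Of the 4 tested, 1 rose and 2 fell in PC3 (median log2 fold change -0.05), and 2 rose and 1 fell in DU145 (0.33), where 67.6% and 62.6% of all genes were called. NRG3 was not tested.

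Of the 5 genes for shedding and transport, 1 rose and 2 fell in both PCa lines against BPH-1 (median -0.29 in PC3 and 0.03 in DU145). That is 3 of 5 called, no more than the shares of all genes, 67.6% and 62.6%. RHBDF2, which carries the shedding enzyme ADAM17 to the cell surface, rose in PC3 (1.66, adjusted p = 3.47e-06) and in DU145 (0.83, adjusted p = 0.00307; 0.36 with the GC trend divided out). The shedding enzyme ADAM10 fell in PC3 (-2.03, adjusted p = 4.94e-06) and in DU145 (-1.49, adjusted p = 0.00137; -0.94 without DU145 replicates 1 and 3). With the GC trend divided out, ADAM10 was at -0.92 in PC3 and was not called in DU145 (-0.17, adjusted p = 0.275; 0.24 with the transcript-length trend also divided out). ADAM17 fell in PC3 by 1.0 (adjusted p = 0.000260), and turned to 0.59 (adjusted p = 0.0269) with the GC trend divided out. Its call was lost in 1 fit over all 3 lines (adjusted p = 0.0517).

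Among 7 adaptors and effectors, 2 rose and 5 fell in PC3 (median -0.95) and 1 rose and 4 fell in DU145 (-1.18), where 40.5% and 32.3% of all genes were lower. GRB2, the adaptor that binds SOS, rose in PC3 (1.32, adjusted p = 0.00382). SHC1 rose in DU145 (2.15, adjusted p = 5.09e-05) and was lower in PC3 than in DU145 (-3.06, adjusted p = 1.43e-05). SOS1, an exchange factor of RAS, fell in PC3 (-1.95, adjusted p = 6.93e-05) and in DU145 (-2.32, adjusted p = 4.82e-05), with -0.66 and -1.14 once the GC trend was divided out.

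Of 10 genes of the RAS-MAPK cascade, 2 rose and 5 fell in PC3 (median -0.30) and 3 rose and 4 fell in DU145 (-0.45). The 7 of 10 called in each line are close to the shares of all genes, 67.6% and 62.6%. NRAS fell in PC3 (-3.02, adjusted p = 1.71e-05) and in DU145 (-2.12, adjusted p = 0.000893; -1.40 without DU145 replicates 1 and 3). With the GC trend divided out it was at -1.47 in PC3, and its call in DU145 was just lost (-0.36, adjusted p = 0.050). It was called in the other 19 of 20 alternatives there, also with the GC and transcript-length trends divided out (-0.39, adjusted p = 0.0375). Of 8 genes of the PI3K branch, 2 rose and 5 fell in PC3 (median -1.10) and 1 rose and 4 fell in DU145 (-0.93), beside 67.6% and 62.6% of all genes called. AKT1, a kinase activated by PI3K, rose in PC3 (0.77, adjusted p = 0.000184; 0.36 with the GC trend divided out). PIK3CA, a catalytic subunit of PI3K, fell in PC3 (-1.55, adjusted p = 0.000187), at -2.38 with log2(FPKM + 0.1) and -2.55 with voom. With the GC trend divided out, PIK3CA was at -0.21 in PC3 (adjusted p = 0.301). In DU145 it fell too (-1.89, adjusted p = 2.14e-05), at -3.14 with log2(FPKM + 0.1) and -3.51 with voom. There it was still called with the GC trend divided out (-0.69, adjusted p = 0.00203).

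Among 10 negative regulators of the receptors, 2 rose and 6 fell in PC3 (median -0.56) and 3 rose and 6 fell in DU145 (-0.70), where 40.5% and 32.3% of all genes were lower. ERRFI1, an inhibitor of the EGFR kinase, rose in PC3 (2.51, adjusted p = 1.75e-06) and in DU145 (2.13, adjusted p = 0.000228). RNF41, a ubiquitin ligase that acts on ERBB3, rose in DU145 (2.81, adjusted p = 5.26e-07) and in PC3 (0.73, adjusted p = 0.000147). CBLC, a ubiquitin ligase of the receptors, had an FPKM of 16 to 19.0 in BPH-1, at most 0.832 in PC3 and at most 0.0777 in DU145. LRIG1, which lowers receptor levels, was lower in PC3 than in DU145 (-1.61, adjusted p = 3.84e-06; -4.01 with log2(FPKM + 0.1), -5.73 with voom).

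Of the 10 genes used as a readout of MAPK signalling, 9 rose and 1 fell in PC3, and 7 rose and 2 fell in DU145, where 27.2% and 30.3% of all genes were higher and 40.5% and 32.3% lower. Their median log2 fold change was 2.08 in PC3 and 1.56 in DU145, against -0.13 and -0.03 over all genes tested. DUSP4, a phosphatase that dampens MAPK, had an FPKM of 87.1 to 144.8 in PC3 and 3.86 to 5.72 in the other lines (log2 fold change 4.35 against BPH-1, adjusted p = 5.22e-08). SPRY2 rose in PC3 (3.11, adjusted p = 1.55e-07). In DU145, ETV5 (3.05, adjusted p = 1.09e-06) and PHLDA1 (2.46, adjusted p = 1.17e-05) rose, and DUSP6 fell (-0.82, adjusted p = 0.00610), a call that upper-quartile scaling ended (-0.56, adjusted p = 0.0541). EPHA4 was at 0.159 to 0.354 in BPH-1, at 0.120 to 0.177 in PC3 and at 0 in all 4 DU145 libraries. It fell by 0.14 in PC3, a call kept in 6 of 18 alternatives. The value in PC3 was -0.55 with log2(FPKM + 0.1) (adjusted p = 0.0357) and -0.82 with voom (adjusted p = 0.0385). The fitted value of EPHA4 in DU145, -0.33, was -1.81 with log2(FPKM + 0.1) and -6.82 with voom, and is no bound.

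**Figure D4:**
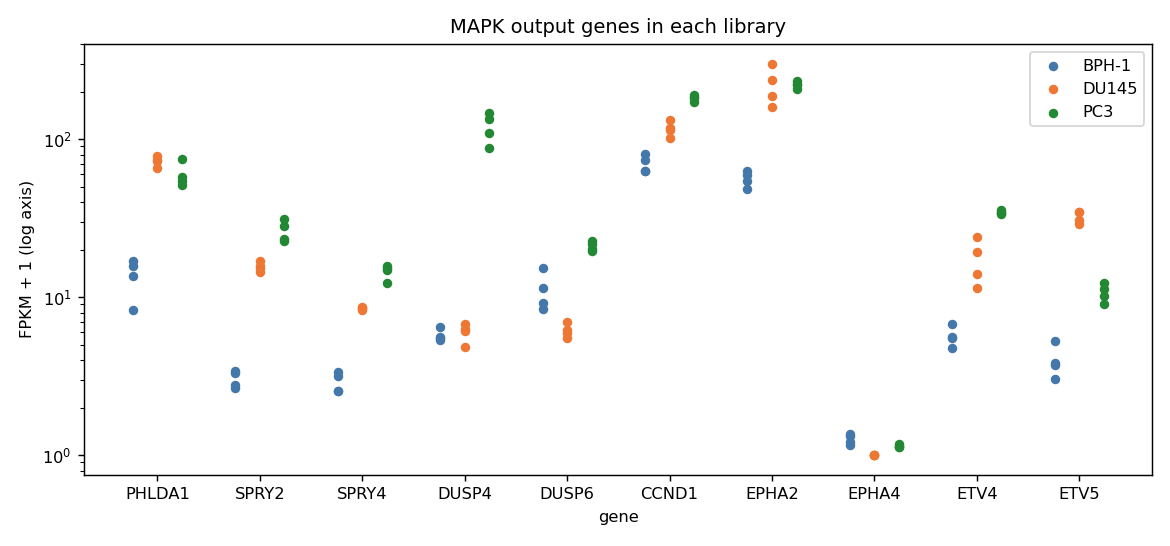
FPKM + 1 (log axis) of the 10 MAPK output genes in the 4 libraries of each line, with 1 point for each library. DUSP4 is at 87.1 to 144.8 in PC3 and at 3.86 to 5.72 in the other lines.

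**Figure D5:**
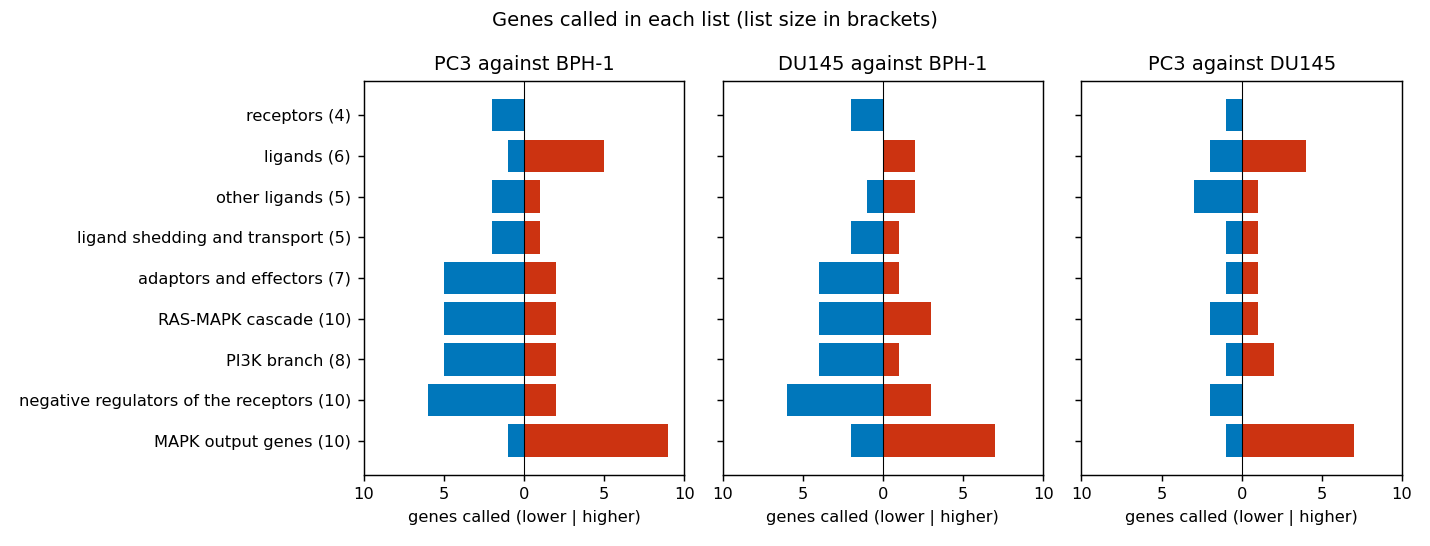
Number of genes of each list called higher (right) or lower (left) in each comparison, with the list size in brackets. MAPK output genes had 9 higher and 1 lower in PC3 against BPH-1.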

How the data were processed

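RNA-sequencing libraries of BPH-1, DU145 and PC3, 4 of each line, were grouped by their labels. The authors deposited FPKM values of 58302 genes on GRCh38, although the header names no unit. The submitters' processing notes name CASAVA 1.8, HISAT2 2.1.0 and edgeR, without roles. The counting program, annotation and use of strand are not given in the sources used here.

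Reads and depth were recovered from the FPKM with GENCODE 29 lengths (the sum of distinct exons), with 92.0% to 93.4% of low values within 0.01 of a whole read. ERBB3 did not give whole reads, and its length was taken from its steps, where 19516 bases and its double both gave whole reads and the shorter was used. This sets its reads and not its FPKM. The 263 genes without a length were not tested. Counting limits, such as 3 reads for a value of 0, cover counting error only.

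limma 3.58.1 in R 4.3.3 (intensity trend) was fitted to log2(FPKM + 1), each fit holding just the 8 libraries of the pair of lines. Genes needed 10 reads at the median depth in 4 libraries, or as many as the smaller group held when a library was left out, and 15 reads in all. Exact permutation tests were two-sided. The scripts were tested on simulated data. Python 3.11.15, numpy 2.4.6, pandas 2.3.3 and matplotlib 3.10.9 were also used.

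The members and lists were chosen with earlier results of these data known. In a comparison, a list could give at most 4 names, the 2 called genes that rose most and the 2 that fell most. Some genes that this rule picked are not reported here, and the counts of the lists include them. Alternatives were no filter, a stricter filter, log2(FPKM + 0.1), a replicate block, 1 fit over all 3 lines, 3 scalings and leaving out each library. Added after seeing the data were GC and length corrections, voom on the recovered reads, and leaving out DU145 replicates 1 and 3 (also with PC3 replicate 4). For the GC correction, a natural spline (5 degrees of freedom, genes averaging 50 reads or more) of log2 FPKM on GC content was fitted in each library and its departure from the mean spline was divided out. A true difference between lines would be removed too where it runs along GC content. A change of sign is given as a turn only where a fit calls the gene.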

Additional observations from a re-analysis of the deposited data

Results flagged for a closer look

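Among 129 groups of 4 libraries of the members and the named genes reported here, 7 had 1 library whose gap to the nearest of its 3 replicates, as a share of the range of the group, passed Dixon's critical value. About 5% of groups pass it by chance, but that share does not hold near 0. A group with 1 library above 0 and the rest at 0 always passes, and a group at 0 throughout cannot. ERBB3 had an FPKM of 1.5 in PC3 replicate 3, against 0.945 to 0.998 in the other PC3 libraries. TGFA had 7.61 in DU145 replicate 3, against 12.4 to 13.0. PIK3R2 had 3.77 in DU145 replicate 4, against 0.103 to 0.275. The other 4 stood against 0 in the rest of their line: ERBB4 in BPH-1 replicate 2 (0.0118) and PC3 replicate 3 (0.00324), NRG1 in PC3 replicate 3 (0.00991) and CBLC in DU145 replicate 2 (0.0777).

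The PCa lines were compared directly, which tests whether their differences from BPH-1 differ. For 7 members that difference was called, with log2 fold changes of PC3 against DU145 of -0.48 for ERBB2, 0.85 for TGFA, 1.71 for AREG, -0.73 for EREG, -1.16 for HBEGF, 0.99 for BTC and 0.71 for EPGN. The call for ERBB2 was kept in only 9 of 21 alternatives (-0.24, adjusted p = 0.185 without DU145 replicates 1 and 3), that for EREG in 17 of 20 and that for BTC in 19 of 20. Among ligands and shedding genes of the lists the values were 0.60 for NRG2, -0.48 for EGF, -0.28 for NRG4, 0.83 for RHBDF2 and -1.51 for ADAM17. EGF was called in 13 of 20 alternatives and ADAM17 in 15 of 21, and without DU145 replicates 1 and 3 their values were -0.79 and -2.43. NRG4 was at 0 to 0.00766 in PC3, and its value was -1.60 with log2(FPKM + 0.1) and -5.06 with voom, which is no bound, while that of EGF was -1.38 and -1.81. Among adaptors and the RAS-MAPK cascade they were 0.73 for PLCG1, -3.06 for SHC1, -0.71 for MAPK3 and -0.63 for MAP2K1, the last 2 not called with median-of-ratios or upper-quartile scaling. MAPK3 was at -0.41 (adjusted p = 0.0448) without DU145 replicates 1 and 3. MAP2K1 was at -0.41 (adjusted p = 0.0246) with the GC trend divided out. In the PI3K branch the values were 2.26 for PIK3R2 and 0.59 for AKT1. PIK3R2 was called in 10 of 20 alternatives (1.76, adjusted p = 0.214 without DU145 replicates 1 and 3), and its FPKM was 0.477 in PC3 replicate 4 against 11.9 to 14.6 in the other PC3 libraries, and 0.200 in BPH-1 replicate 1 against 6.91 to 11.4, gaps that stayed under Dixon's critical value. The values were, among negative regulators -2.08 for RNF41 and -1.61 for LRIG1, and among MAPK output genes 4.30 for DUSP4, 1.78 for DUSP6 and -1.59 for ETV5.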

How the results depend on the processing

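The number of genes called stayed within 1.5 times the count over all libraries under every alternative. The number of members called did too, except with the stricter filter, which tests fewer genes: 5 in PC3 against BPH-1 and 4 in PC3 against DU145. With upper-quartile scaling, the genes called in PC3 against BPH-1 were 6092 higher and 5055 lower, in place of 4443 and 6614. The median log2 fold change of all genes was then 0.09, in place of -0.13, and -0.28 with FPKM rescaled to the same sum. In DU145 against BPH-1 it was 0.13 and -0.16 under these scalings, in place of -0.03. The genes called in DU145 were 6165 higher and 4604 lower with upper-quartile scaling, in place of 5174 and 5515. With FPKM rescaled to the same sum they were 4143 higher and 6585 lower in DU145, and 3428 and 7901 in PC3 against BPH-1. Of 511 values of members under alternatives, 1 turned its sign, 25 lost and 12 gained a call. With the GC trend divided out, the log2 fold changes that turned in PC3 against BPH-1 were 0.011 for EREG, 0.59 for ADAM17 and -0.011 for MAP2K2. With GC and transcript-length trends divided out they were 0.70 for ADAM17 and -0.027 for MAP2K2, and 0.24 for ADAM10 in DU145 against BPH-1. The cause was not tested. The replicate numbers did not pair the libraries (correlation of deviations between -0.66 and 0.52). With the replicate block, 10710 genes were called in PC3 against BPH-1, 10152 in DU145 against BPH-1 and 6654 in PC3 against DU145, with 8, 4 and 6 members. Depth limits what can be said of ERBB4 and EPGN.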

Other observations

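Markers of other cell types differed between DU145 libraries. PTPRC, the leukocyte antigen CD45, had an FPKM of 1.35 and 1.25 in DU145 replicates 1 and 2 and was at 0 in replicates 3 and 4, and PECAM1, an endothelial adhesion molecule, was at 0.198 and 0.224 in replicates 1 and 2 and at 0 in replicates 3 and 4. PTPRC was also at 1.15 to 1.54 in all 4 BPH-1 libraries and at 0 in PC3, and PECAM1 was at 0.130 to 0.179 in BPH-1 and at 1.19 to 2.28 in all 4 PC3 libraries. The basal keratins KRT5 (0.342, 0.499, 0.0240 and 0 in replicates 1 to 4) and KRT14 (0.275, 0.442, 0.0222 and 0) and the basal factor TP63 (0.0446, 0.0542, 0.0156 and 0) were also higher in replicates 1 and 2. The fibroblast genes DCN (0.373 and 0.214), COL1A2 (0.133 and 0.135) and LUM (0.108 and 0.14) were above 0 in replicates 3 and 4 and at 0 in replicates 1 and 2. COL1A1, at 0.433, 0.354, 0.524 and 0.442 in replicates 1 to 4, differed little along this split, CD3E was at 0 in all 4 libraries, and the other markers of these lists did not follow it. COL3A1 was at 0.0330, 0.0328, 0.111 and 0.0239, KRT15 at 0.296, 0.169, 0.443 and 0.173, CD68 at 5.85, 3.83, 9.95 and 5.06, VWF at 0.0634, 0.0485, 0.149 and 0.0413, and CDH5 at 0.0112, 0.0778, 0.0587 and 0.0135. The split was seen in the values and no test was made.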
